A study of Mus musculus with 6 samples.

Results

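Amino acids cross the plasma membrane and the membranes of organelles through carrier proteins, and the messenger RNAs of 7 families of these carriers are described here in mouse sarcoma cell lines with and without Dicer. The members were all genes whose symbol places them in the Slc1, Slc3, Slc6, Slc7, Slc36, Slc38 or Slc43 family, taken from probe sets tied to 1 symbol, with the probe set of highest mean over the 6 arrays standing for each gene. This gave 58 genes with 118 probe sets, out of 18193 named genes and 45037 probe sets on the arrays. All 6 arrays were of sarcoma cells of strain C57BL6/J. Of these arrays, 3 were labelled Dicer heterozygote (1 working copy of the microRNA-processing ribonuclease left) and 3 were labelled Dicer null. All cells were grown without further treatment in DMEM with serum and L-glutamine and harvested at confluence. Every group therefore had an outside supply of amino acids. The labels name neither the tumour of origin, nor the means by which Dicer was removed, nor whether replicates were separate clones or cultures, and p-values therefore measure the spread between these arrays, which may be technical.

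The families divide the work by substrate and coupling. Most carriers of the Slc1 and Slc6 families draw on the sodium gradient and concentrate their substrates. Slc38 carriers bring in or release glutamine and other neutral amino acids, and the Slc36 family includes carriers driven by protons. The Slc7 family holds the cationic amino acid carriers, which work alone, and the light chains, which reach the cell surface only when bound to a heavy chain of the Slc3 family and exchange 1 amino acid for another. Carriers of arginine, leucine and glutamine matter to growing cells because these amino acids feed the growth-promoting kinase complex mTORC1, and the cystine carrier Slc7a11 because cystine is the source of cysteine for glutathione.

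A single transporter gene was called different between the groups, the arginine and lysine carrier Slc7a2, which was lower in the lines labelled Dicer null by 35.9-fold. No member was called higher. Of the 58 members 29 had a mean log2 value of at least 3, the level below which these arrays show mostly background, and were tested with all other probe sets in limma. Of these 29, 0 were called higher and 1 lower at a Benjamini-Hochberg adjusted p of 0.05, while 1.45% and 2.0% of all 11425 tested genes were called higher and lower, and 3.46% in either direction. By unadjusted p under 0.05, 5 of the 29 differed, against 24.0% of all tested genes, and 4 differed by at least 1 log2 unit in size, against 15.3%. The groups did not overlap for 10 of the 29, 5 with the null arrays above and 5 below, against 32.2% of all tested genes. The median log2 difference, null minus heterozygous, was -0.04 over the members and -0.01 over all tested genes, and the median size of the difference was 0.40 and 0.34. All of these shares lie near those of the whole array and are no result about the families.

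Other facts of the arrays touch several members. The targeted gene, Dicer1, was not lower in the arrays labelled null: one probe set gave 8.60, 8.19 and 8.17 in heterozygous and 8.56, 8.40 and 8.42 in null arrays (log2 difference 0.14, limma adjusted p = 0.693), and the other gave 0.27 (limma adjusted p = 0.573). Which part of the gene was deleted is not given in the labels, so a probe set outside that part would show nothing about the genotype, and all directions below rest on the labels. Of 13 mesenchymal markers 12 were tested, with Vim, Col1a1, Col1a2, Col3a1 and Twist1 above 11 on each array and Thy1 at background. None of the 12 was called by limma, and 4 had an unadjusted p under 0.05, against 24.0% of all tested genes: S100a4 (log2 difference -1.37), Pdgfra (-1.63), Pdgfrb (-1.03) and Lum (2.82, from 1.75 to 2.79 in heterozygous to 3.39 to 6.73 in null arrays). Of the markers with a probe set, those with a mean of at least 3 were 1 of 9 for leukocytes (Cd68, 4.43 to 7.13), 0 of 8 for endothelium, 2 of 12 for neurons and glia (Tubb3, 5.59 to 8.20, and Mbp, 5.99 to 7.79), 2 of 9 for skeletal muscle (Myh3 and Acta1) and 3 of 6 for adipocytes (Lpl, 7.73 to 11.99, Fabp4, 5.33 to 10.18, and Pparg, 6.55 to 9.66). Ptprc, Adgre1, Rbfox3, Gfap, Myod1, Myog and Adipoq were below that mean, and none of these lists had a gene called by limma. The mean level over the adipocyte list was 5.40 to 5.70 in heterozygous and 5.09 to 5.57 in null arrays, and that over the leukocyte list 2.26 to 2.46 and 2.21 to 2.41. Heterozygous replicate 1 stood apart by the keratin Krt18 at 9.02, against 2.0 to 2.68 on the other arrays, and by Acta1 at 7.75 against 3.13 to 4.91. The mean level over 10 epithelial markers, Krt18 among them, was 3.69 there and 2.36 to 3.17 elsewhere, with 3 of the 10 tested. Since that mean includes Krt18, it is not separate from the Krt18 value. The tested marker Krt19 was at 8.92, 7.07 and 4.75 in heterozygous and 8.5, 8.15 and 6.49 in null arrays. Epcam, also tested, was at 2.53 to 3.55 and 3.1 to 5.21. Cdh1, which defines epithelium, had a mean below 3. Heterozygous replicate 3 had the lowest level of proliferation genes, a mean of 9.52 over 11 genes against 10.28 and 10.37 in the other heterozygous and 10.65 to 10.94 in the null arrays. Of these 11 genes none was called by limma. All 11 had positive differences, with a median of 0.68, while 48.7% of all tested genes were above 0. An unadjusted p under 0.05 was found for 4 of the 11, against 24.0% of all tested genes. The groups did not overlap for 6, against 32.2%. The part of these libraries in the values below was not tested beyond leaving each array out in turn.

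**Figure D1:**
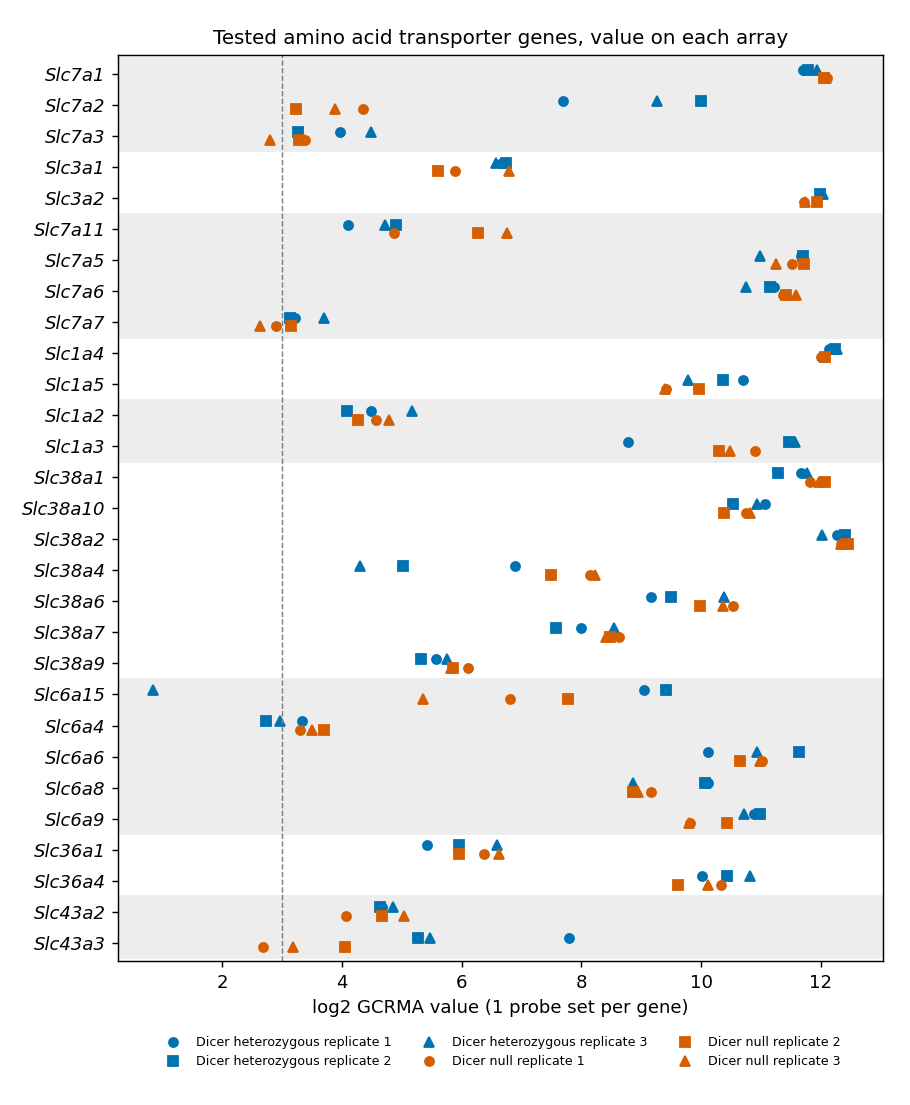
Log2 GCRMA value (horizontal axis) of the 29 tested transporter genes on each of 6 arrays, heterozygous in blue and null in orange, with 1 symbol shape per replicate number, grey and white bands for the groups of carriers, and a dashed line at 3. Slc7a2 separates widely, at 7.70 to 10.00 in heterozygous against 3.23 to 4.35 in null arrays, while Slc6a15 of heterozygous replicate 3 lies at 0.85.

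The cationic carriers take up arginine, lysine and ornithine. Slc7a2, whose protein has forms of low and high affinity for arginine and which is induced in activated macrophages and expressed in liver and muscle, gave log2 values of 7.70, 10.00 and 9.27 in heterozygous replicates 1, 2 and 3 and of 4.35, 3.23 and 3.89 in null replicates 1, 2 and 3. The lowest heterozygous array stood 3 or more log2 units above every null array, and the null values lay close to background. The means were 8.99 ± 1.18 and 3.82 ± 0.56 (SD, n = 3 each), a log2 difference of -5.17 (SE 0.62, 95% interval -6.66 to -3.67, limma adjusted p = 0.0203). The call was lost, with the direction kept, without heterozygous replicate 2 (limma adjusted p = 0.0561), null replicate 1 (0.0515), null replicate 2 (0.0845) or null replicate 3 (0.0853), and with the replicate number as a block (0.0755). The fold was 56.2 without heterozygous replicate 1, where the call stayed.

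The second probe set of Slc7a2, also tested, gave 3.23, 3.74 and 4.02 in heterozygous and 2.63, 2.48 and 2.73 in null arrays, a log2 difference of -1.05 (SE 0.24) that did not pass (limma adjusted p = 0.0716). Its groups did not overlap either, and its null values were below 3, so the size of this difference rests on the background model. The remaining pair lay below 3 on all arrays.

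Slc7a1, the carrier that most growing cells use for arginine, was not called. It stood at 11.70, 11.78 and 11.94 in heterozygous and 12.10, 12.05 and 12.08 in null arrays. The null arrays were all slightly higher, but the log2 difference of 0.27 (95% interval -0.10 to 0.64, limma adjusted p = 0.340) did not pass, and its second tested probe set gave 0.43. Slc7a3, another carrier of this kind known from brain and embryo, was near background, at 3.27 to 4.48 and 2.81 to 3.38 (log2 difference -0.75, limma adjusted p = 0.255). Slc7a4 and Slc7a14, which are related by sequence, were not tested, with means of 2.64 and 2.03. Slc7a4 reached 3.53 in heterozygous replicate 1 and stayed below 3 on the other arrays.

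**Figure D2:**
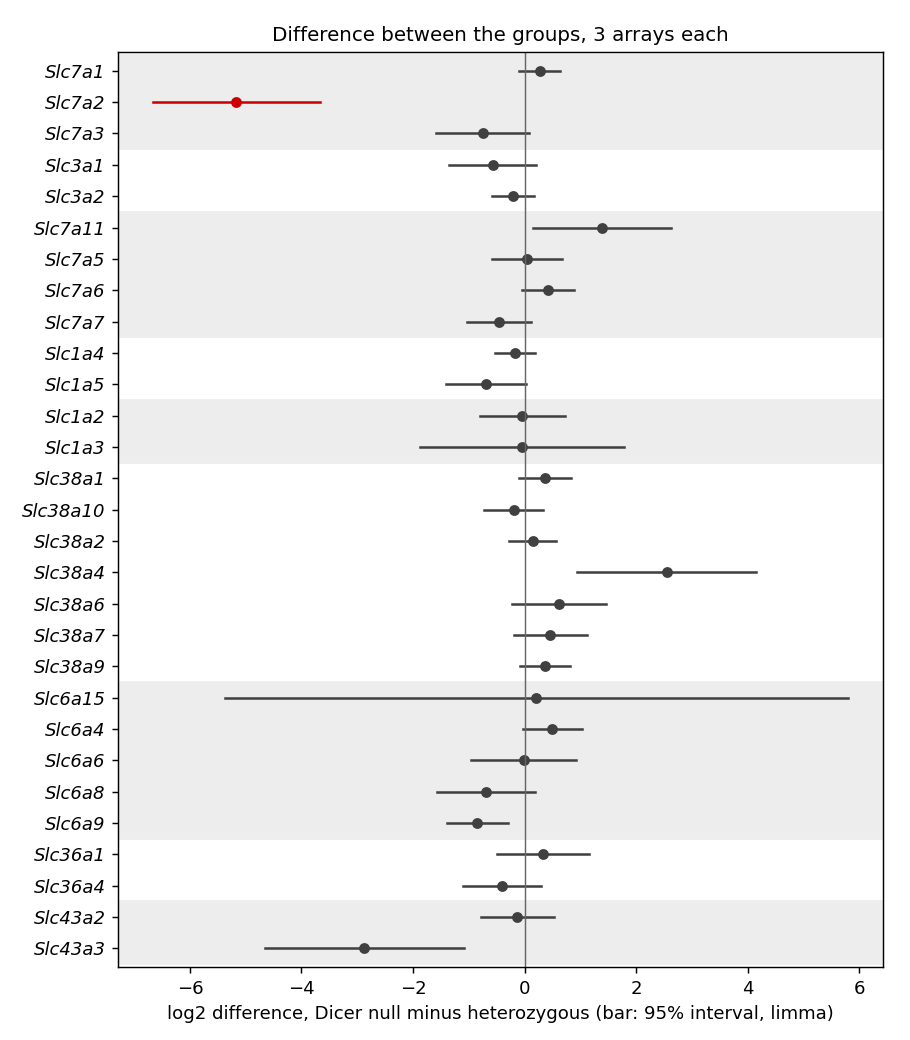
Log2 difference, Dicer null minus Dicer heterozygous, of the 29 tested transporter genes with its 95% interval from limma (unadjusted, 3 arrays per group), the called gene in red and bands as for the groups of carriers. Slc7a2 at -5.17 is the single called gene, Slc38a4 at 2.55 and Slc43a3 at -2.87 follow in size without passing, and the interval of Slc6a15 runs from -5.38 to 5.80.

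Heavy chains carry the light chains to the cell surface. Slc3a2, also known as CD98hc, gave 11.98, 11.98 and 12.04 in heterozygous and 11.72, 11.93 and 11.73 in null arrays. The null arrays were all lower, by a log2 difference of -0.21 (95% interval -0.57 to 0.16, limma adjusted p = 0.462) that did not pass. Slc3a1, the heavy chain of kidney and gut, was measured at 6.67, 6.75 and 6.58 against 5.89, 5.60 and 6.80, with null replicate 3 above the heterozygous arrays (log2 difference -0.57, limma adjusted p = 0.343). Its usual partner in kidney, Slc7a9, lay at background with a mean of 1.96.

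Of the light chains 4 of 10 were tested, and none was called. Slc7a5, or LAT1, which brings in leucine and other large neutral amino acids, had 11.67, 11.70 and 10.98 in heterozygous and 11.51, 11.72 and 11.25 in null arrays, a log2 difference of 0.04 (95% interval -0.58 to 0.67, limma adjusted p = 0.942). Slc7a6, which exchanges arginine for neutral amino acids and so can export it, gave 11.22, 11.15 and 10.75 against 11.37, 11.41 and 11.59. All null arrays were above all heterozygous ones, by 0.42 (95% interval -0.05 to 0.88, limma adjusted p = 0.253), and the second probe set gave 0.61 (adjusted p = 0.201). Slc7a7, the exchanger of the same kind in gut, kidney and macrophages, was near background at 3.13 to 3.71 and 2.63 to 3.16 (log2 difference -0.45, adjusted p = 0.305). Slc7a8, Slc7a10, Slc7a12, Slc7a13 and Slc7a15 were at background with Slc7a9.

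Slc7a11, or xCT, exchanges glutamate for cystine. Its values were 4.11, 4.91 and 4.73 in heterozygous and 4.88, 6.28 and 6.76 in null arrays. Null replicates 2 and 3 stood above the heterozygous arrays, while null replicate 1 fell among them. The log2 difference of 1.39 (95% interval 0.15 to 2.63) had an unadjusted p of 0.0330 in limma and did not pass after adjustment (0.176). The other probe set gave 0.87 (limma adjusted p = 0.515).

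Transcription of Slc7a11 is known to respond to amino acid shortage through the transcription factor ATF4, which binds a sequence of the form TGATGNAA. The 250 bases before the start site of Slc7a11 are shown because they hold this sequence in both orientations (RefSeq, GRCm38.p6, minus strand, chr3:50443614-50443863, 5′ to 3′, matches in capitals).
Slc7a11: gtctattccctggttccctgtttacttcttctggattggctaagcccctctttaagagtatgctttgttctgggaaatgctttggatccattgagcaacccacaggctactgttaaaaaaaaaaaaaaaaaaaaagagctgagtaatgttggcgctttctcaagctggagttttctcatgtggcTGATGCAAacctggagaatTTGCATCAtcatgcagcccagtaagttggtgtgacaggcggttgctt

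The matches begin 66 and 47 bases before the start. Among 41 members with a window of this kind, TGATGNAA on either strand was found in 3, Slc7a11, Slc7a7 and Slc6a21. Over windows it was present in 6.45% of the 62 of members and in 3.45% of all 32851. TGACNNNGC, the form bound by the oxidative stress factor NRF2, was found in 14.5% of member windows and 10.2% of all, and the cyclic AMP response sequence TGACGTCA in 1.61% and 1.55%, each on both strands. A match is a description of letters, not of binding. The messenger RNA level of Atf4 itself was 12.66, 12.51 and 12.31 in heterozygous and 12.42, 12.54 and 12.49 in null arrays. It differed by -0.01 (95% interval -0.41 to 0.39, limma adjusted p = 0.981). The amount and activity of the ATF4 protein were not measured, and this level does not show them.

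The neutral amino acid exchangers of the Slc1 family were both lower on average in null arrays without passing. Slc1a5, or ASCT2, which takes up glutamine, gave 10.70, 10.36 and 9.78 in heterozygous and 9.42, 9.97 and 9.39 in null arrays. The groups overlapped through heterozygous replicate 3 and null replicate 2, and the log2 difference was -0.69 (95% interval -1.41 to 0.03, limma adjusted p = 0.233). Slc1a4, or ASCT1, which carries alanine, serine and cysteine, gave 12.14, 12.24 and 12.26 against 12.00, 12.07 and 12.06, a difference of -0.17 (95% interval -0.52 to 0.18, limma adjusted p = 0.527) with no overlap between the groups.

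Excitatory amino acid carriers take up glutamate and aspartate and are known mainly from brain. Slc1a3, the glial carrier GLAST, had close means in both groups but not a like spread, with 8.78, 11.46 and 11.57 in heterozygous and 10.89, 10.29 and 10.48 in null arrays. Heterozygous replicate 1 was the lowest and the other heterozygous arrays the highest, and the gene's 6 tested probe sets all had this order. The log2 difference was -0.05 (95% interval -1.88 to 1.78, limma adjusted p = 0.980), an interval that spans over 3-fold either way. The same array carried the high Krt18 and Acta1 values given above. Slc1a2 was measured at 4.09 to 5.17 and 4.27 to 4.79, a difference of -0.04 (95% interval -0.79 to 0.72). Slc1a6, a carrier of cerebellar neurons, had a mean of 2.64 and was not tested, but stood at 4.69 and 4.10 in heterozygous replicates 1 and 2 against 1.5 to 1.98 on the other arrays. Slc1a1 was at background, and so was Slc1a7 except for 3.22 in heterozygous replicate 1.

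Slc38 carriers move glutamine and small neutral amino acids across the plasma membrane or out of lysosomes. Of 9 members 7 were tested, and 6 of these had positive differences without any call (48.7% of all tested genes were above 0). Slc38a4, a sodium-coupled carrier of neutral amino acids that is abundant in liver and placenta and is imprinted in mouse, gave 6.90, 5.02 and 4.31 in heterozygous and 8.14, 7.5 and 8.23 in null arrays. The groups did not overlap, and the heterozygous arrays were spread over 2.59 log2 units against 0.73 in the null arrays. The log2 difference was 2.55 (5.84-fold, SE 0.66, 95% interval 0.95 to 4.14), with a limma adjusted p of 0.0921. Without heterozygous replicate 1 it was 3.29 and passed (limma adjusted p = 0.0236), and with array weights it was 2.79 and passed (0.0178). Over all alternatives its limma adjusted p ran from 0.0178 to 0.249. The second probe set also had a positive difference, 1.18 (limma adjusted p = 0.110). Its heterozygous values were 3.29, 2.61 and 2.23, with a mean below 3. That probe set passed the minimum, at a mean of 3.30, only through the null arrays, so the size of its difference rests on the background model.

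The other Slc38 genes differed less. Slc38a1, a glutamine carrier, gave 11.67, 11.28 and 11.77 against 11.82, 12.06 and 11.96 (log2 difference 0.37, 95% interval -0.09 to 0.84, limma adjusted p = 0.302), with no overlap. Slc38a2, the carrier that is induced when amino acids run short, gave 12.27, 12.40 and 12.01 against 12.33, 12.45 and 12.33 (0.14, 95% interval -0.27 to 0.56, limma adjusted p = 0.660). Slc38a6, Slc38a7 and Slc38a10 differed by 0.62, 0.46 and -0.20 with overlapping groups, and Slc38a3 and Slc38a5 were at background.

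Slc38a9, the lysosomal arginine sensor that signals to mTORC1, was low, and its probe sets gave differences of unlike size. The one of highest mean, whose x suffix marks probes that may match other transcripts, gave 5.58, 5.33 and 5.76 in heterozygous and 6.10, 5.86 and 5.82 in null arrays (log2 difference 0.37, 95% interval -0.08 to 0.82, limma adjusted p = 0.290). Another gave 4.61, 3.97 and 4.51 against 5.61, 5.64 and 5.24, a difference of 1.13 (95% interval 0.56 to 1.70) with a limma adjusted p of 0.0585. Of its 6 tested probe sets 5 had positive differences and 1 did not (-0.04), and none was called. Those not yet given were 0.87 and 0.76 without overlap of the groups (limma adjusted p = 0.189 and 0.0932), and 0.12 with overlap.

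**Figure D3:**
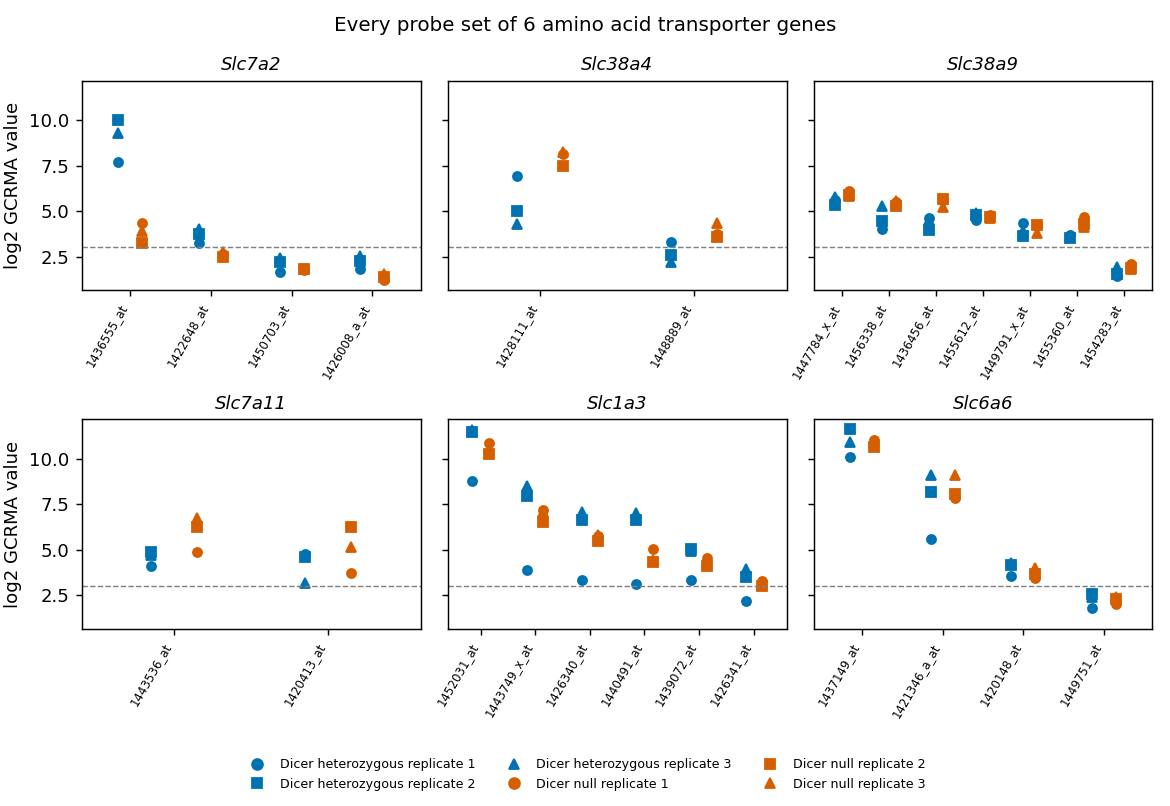
Log2 GCRMA values of every probe set of 6 transporter genes on the 6 arrays (heterozygous in blue, null in orange, 1 symbol shape per replicate number, dashed line at 3), ordered by mean within each gene. The heterozygous and null arrays separate in both tested probe sets of Slc7a2 and both of Slc38a4, and for Slc1a3 heterozygous replicate 1 lies lowest wherever the gene was tested.

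The Slc6 family holds carriers of neurotransmitters, creatine, taurine and amino acids. Of 18 members 5 were tested and none was called. Slc6a9, the glycine carrier GlyT1, gave 10.88, 10.98 and 10.72 in heterozygous and 9.81, 10.43 and 9.80 in null arrays. The groups did not overlap, with a log2 difference of -0.85 (1.80-fold, 95% interval -1.39 to -0.30) and a limma adjusted p of 0.0967, while the second probe set gave -0.28. It passed with array weights (-1.0, limma adjusted p = 0.0239; 0.0239 to 0.271 over all alternatives). Slc6a8, the creatine carrier, gave 10.11, 10.06 and 8.87 against 9.16, 8.87 and 8.94, with heterozygous replicate 3 at the level of the null arrays. Its difference of -0.69 did not pass (95% interval -1.56 to 0.18, limma adjusted p = 0.306), and without heterozygous replicate 3 it was -1.10 and passed (0.0424; 0.0424 to 0.548 over all alternatives).

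Slc6a15, a carrier of branched-chain amino acids and proline known from brain, varied more between arrays of 1 group than between the groups, and is singled out after its values were seen. It stood at 9.04, 9.42 and 0.85 in heterozygous and at 6.81, 7.78 and 5.35 in null arrays. Heterozygous replicate 3 was at background for a gene that was bright in the other 2 heterozygous arrays, and the log2 difference of 0.21 has a 95% interval of -5.38 to 5.80 (limma adjusted p = 0.971). This array also had the lowest proliferation level, as given above. In such RNA of whole cultures, fewer cells with the transcript and less of it per cell cannot be told apart.

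Slc6a6, the taurine carrier, gave 10.12, 11.64 and 10.94 against 11.02, 10.64 and 10.99 (log2 difference -0.02, 95% interval -0.96 to 0.93, limma adjusted p = 0.987), and its second probe set, at 5.61 in heterozygous replicate 1 and 7.84 to 9.11 elsewhere, gave 0.69. The serotonin carrier Slc6a4 was near background (2.73 to 3.33 and 3.30 to 3.71). The 13 untested Slc6 members include the carriers of dopamine (Slc6a3), of glycine in neurons (Slc6a5) and of proline (Slc6a7). The noradrenaline carrier Slc6a2 was the only one of the 13 to reach 3 on any array, 3.69 in heterozygous replicate 3.

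A spread of at least 2 log2 units within a group was found for 5 of the 29 tested members, Slc1a3, Slc38a4, Slc43a3, Slc6a15 and Slc7a2, against 9.75% of all tested genes. In 4 of these 5 the spread lay among the heterozygous arrays alone, as it did in 62.2% of the genes with such a spread on the whole array. Heterozygous replicate 1 lay farthest from the other arrays of its group in Slc1a3, Slc38a4, Slc43a3 and Slc7a2, and heterozygous replicate 3 in Slc6a15.

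The Slc36 and Slc43 carriers were few. Slc36a1, which releases amino acids from lysosomes, gave 5.43, 5.95 and 6.59 against 6.38, 5.95 and 6.63 (log2 difference 0.33, 95% interval -0.50 to 1.16), and Slc36a4 gave 10.02, 10.43 and 10.82 against 10.33, 9.62 and 10.11 (-0.40, 95% interval -1.10 to 0.29). Neither passed (limma adjusted p = 0.606 and 0.445), and Slc36a2 and Slc36a3 were at background. Slc43a2, or LAT4, a carrier of large neutral amino acids, was low in both groups (4.64 to 4.86 and 4.07 to 5.04; log2 difference -0.13, limma adjusted p = 0.811), and Slc43a1 was at background.

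Slc43a3, which despite its family carries purine nucleobases, gave 7.80, 5.27 and 5.47 in heterozygous and 2.68, 4.05 and 3.19 in null arrays. Every heterozygous array was above every null array, and heterozygous replicate 1 stood far above its group. The null values lay close to background, so the size of the difference rests in part on the background model. The log2 difference was -2.87 (7.33-fold, SE 0.74, 95% interval -4.66 to -1.09), with a limma adjusted p of 0.0905, so that it was not called. Without heterozygous replicate 1 it was -2.06 (4.18-fold, limma adjusted p = 0.0770). It passed with array weights, at -2.53 (limma adjusted p = 0.0446; 0.0446 to 0.240 over all alternatives). Together with Slc7a2 and Slc38a4 it was 1 of 3 tested members whose groups did not overlap and differed by at least 1 log2 unit, against 11.6% of all tested genes.

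Beyond these families, genes of amino acid transport and use from 6 lists written from general knowledge gave 2 called higher and 1 called lower among 123 tested genes, with a median log2 difference of -0.08. Over all tested genes 1.45% were called higher, 2.0% lower and 3.46% in either direction, so the count of 3 in 123 is no result about these lists, and each called gene is given for itself. Of 16 tested genes listed as other amino acid transporters, among them the choline carrier Slc44a1, 1 rose and 0 fell. The 1 was Slc25a13, the mitochondrial aspartate and glutamate carrier citrin, at 9.12, 9.37 and 9.04 in heterozygous and 10.49, 11.02 and 11.01 in null arrays, a 3.17-fold rise (log2 difference 1.66, SE 0.21, limma adjusted p = 0.0229). The groups lay over 1 log2 unit apart. The call was lost without heterozygous replicate 2 (limma adjusted p = 0.0684), null replicate 2 (0.0930) or null replicate 3 (0.0979). Its close relative Slc25a12 gave 9.45, 9.84 and 9.73 against 9.30, 8.95 and 9.58, a difference of -0.40 that did not pass (0.338).

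Of 27 tested enzymes of amino acid synthesis and breakdown, 1 rose and 0 fell, and the 1 was Arg1, the arginase that splits arginine into ornithine and urea. It was at background in heterozygous arrays (2.09, 2.39 and 2.09) and at 4.44, 6.51 and 5.64 in null arrays. The log2 difference of the values as deposited was 3.34 (limma adjusted p = 0.0323). Because the heterozygous group lay below 3, the rise is better set against that level, and the null mean was 5.78-fold above it. Arg1 passed the minimum, at a mean of 3.86, only through the null arrays. The call was lost when values below 3 were raised to 3 (limma adjusted p = 0.0545), and without any 1 array other than null replicate 1, with adjusted p of 0.0537 to 0.123. Without null replicate 1 the log2 difference was 3.89 in place of 3.34 (limma adjusted p = 0.0285), and without null replicate 2 it was 2.85 (0.0824). Arg1 is also a marker of some macrophages; of the leukocyte markers Cd68 gave 7.13, 5.24 and 5.30 in heterozygous and 5.30, 4.43 and 5.84 in null arrays, and Ptprc, Adgre1, Itgam and Csf1r had means below 3. The part of such cells in the Arg1 values was not tested. Arg2, the mitochondrial arginase, stood at 4.0 to 4.37 and 4.03 to 4.24 and did not pass (log2 difference -0.11, limma adjusted p = 0.757). Ass1 and Nos2, which make arginine and nitric oxide, had means of 1.87 and 1.95.

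Of 32 tested genes of mTORC1 and its amino acid sensing, 0 rose and 1 fell, Castor1, a cytosolic arginine sensor. It gave 5.68, 5.93 and 5.41 in heterozygous and 4.35, 4.0 and 4.54 in null arrays, a 2.60-fold fall (log2 difference -1.38, SE 0.22, limma adjusted p = 0.0379). The call was kept without heterozygous replicate 3 (limma adjusted p = 0.0381) and lost without each of the other 5 arrays (0.0706 to 0.115). Its relative Castor2 gave 7.49 to 8.0 and 7.81 to 8.13 and did not pass (log2 difference 0.23, adjusted p = 0.527). In the replicate block fit none of Slc25a13, Arg1 and Castor1 was called (limma adjusted p = 0.0677, 0.0684 and 0.0992).

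The remaining 3 lists had 0 called members in limma, and their shares with an unadjusted p under 0.05 were at or below the 24.0% of all tested genes. By the same measure the lists with a called gene had 5 of 16 other transporters, 8 of 32 mTORC1 genes and 1 of 27 enzymes. In the ATF4 and amino acid deprivation list, 3 of 26 had an unadjusted p under 0.05, and the smallest was that of the lipoprotein receptor Vldlr (log2 difference -1.14, limma adjusted p = 0.105). The others were Stc2 (-0.94, limma adjusted p = 0.127) and Atf5 (-0.81, 0.142), so all 3 were lower in null arrays. Over the list 11 differences were above 0 and 15 below. Asparagine synthetase, Asns, differed by -0.16 (95% interval -0.73 to 0.40) and the stress-induced pseudokinase Trib3 by -0.15 (95% interval -1.30 to 0.99). In the glutathione list, 3 of 15 had an unadjusted p under 0.05, with Gclm, the modifier subunit of the first enzyme of glutathione synthesis, at -0.83 (limma adjusted p = 0.0976) and its catalytic subunit Gclc at -0.86 (0.161). Among 10 partners and regulators of surface transporters the count was 1, Arrdc3, an adaptor for ubiquitin ligases, at 1.19 (limma adjusted p = 0.0914).

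**Figure D4:**
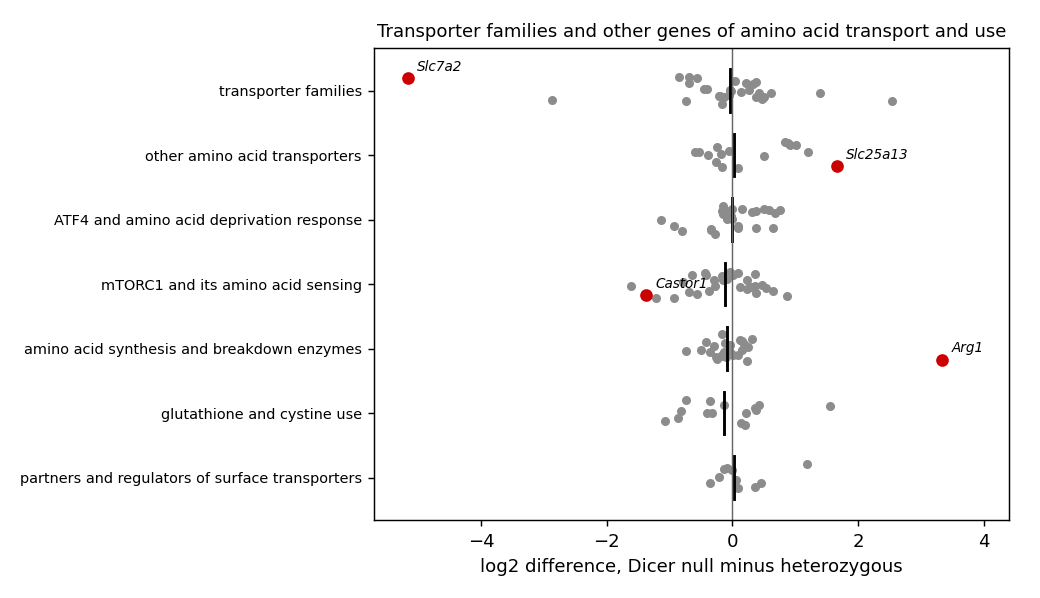
Log2 difference, Dicer null minus Dicer heterozygous, of the 29 tested transporter genes and of the tested genes of 6 further lists (1 point per gene, spread vertically at random within a list, called genes in red with their names, black bars at each list's median). Slc7a2 at -5.17, Castor1 at -1.38, Slc25a13 at 1.66 and Arg1 at 3.34 are the called genes, and every list's median lies within 0.15 of 0.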

How the data were processed

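The authors' deposited table holds 1 log2 value per probe set and array. Per the submitters' processing notes it was made with R 2.11.1 and GCRMA 2.20.0, which corrects background by probe sequence and normalizes quantiles between arrays. The sources used here do not give its settings. Array medians were 3.32 to 3.43. Differences that begin below 3 hang on the background model, and precision is limited by having 3 arrays a group. Means of different probe sets were set against each other to choose a gene's probe set and names. Marker lists were averaged over probe sets, and genes were called low or bright by their values. These uses are rough, since brightness also depends on the probes. Depth does not apply to arrays.

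Of the probe sets, 34945 were tied to 1 symbol by the platform annotation, and 24385 with a mean of at least 3 were tested with limma 3.58.1 in R 4.3.3 (lmFit, eBayes, two-sided, Benjamini-Hochberg over all tested probe sets at 0.05). The script was tested on simulated data. Some genes of these families were not analysed here. Members, lists and naming rules were chosen with earlier results of these data known. The rule named called members, members with separate groups and a log2 difference of at least 1, the 3 of highest mean and 20 carriers fixed by name; other members are described so that each is accounted for. Named from the other lists were the called genes or else that of smallest p. Atf4, Asns, Trib3, Stc2, Atf5, Gclc, Slc25a12, Castor2, Arg2, Ass1 and Nos2 were added after their values were seen. Figures used matplotlib 3.10.9.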

Additional observations from a re-analysis of the deposited data

How the results depend on the processing

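In limma, 0 members were called higher and 1 lower. These counts did not change with another or no minimum, trended or robust moderation, quantile normalization again, centred arrays, the floor at 3 or other choices of probe set, the last including each probe set counted by itself, which was added after the data were seen. With array weights 1 member was called higher and 3 lower. With 1 array left out, 0 to 1 were called higher and 0 to 2 lower. Deviations from the group means gave correlations of -0.06, 0.11 and 0.24 between arrays of 1 number, and 3 of 6 were closest to their namesake. With so few arrays this cannot tell whether those of 1 number were paired, and the labels name no pairing. With the replicate block 0 members were called higher and 0 lower. The difference of Slc7a5 turned to -0.17 with array weights and ran from -0.19 to 0.17 with 1 array left out, that of Slc6a6 from -0.41 to 0.35 and that of Slc43a2 from -0.35 to 0.13, none of them called. Slc7a2 was lower in each of its 17 alternatives, by log2 differences of -5.81 to -4.66 (limma adjusted p = 0.00500 to 0.0853). The cause of these changes was not tested. Values below 3 have no usable order, and 25 of the 29 untested members had no others in the probe set used; the 4 that reached 3 on some array are given as values.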
